A study of Mus musculus with 6 samples.

Results

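The genes described here handle iron: the ferritin chains Ftl1 and Fth1, the transferrin receptor Tfrc, the importers Slc11a2 and Slc39a14, the exporter Slc40a1, the iron regulatory proteins Aco1 and Ireb2, the haem-degrading enzyme Hmox1 and the ferritin cargo receptor Ncoa4. They were taken by gene symbol from the deposited count table, in which these 10 genes are 10 of 25746 rows. RNA-seq was measured in 2 Acta2 knockout (KO) and 2 wild-type (WT) samples of mouse cardiac fibroblasts, and ATAC-seq, a map of open chromatin by transposase insertion, in 1 KO and 1 WT sample. Acta2 encodes α-smooth muscle actin, the actin isoform by which activated fibroblasts are recognised.

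Per the labels, KO cells came from Acta2 fl/fl mice, and cells of both genotypes received Cre from an adenovirus and were then exposed to TGFβ for 2 days. The same labels also describe fibroblasts sorted from infarcted hearts by an eGFP reporter of the Tcf21 lineage, so which preparation a library came from is not given. The treatment text shared by all samples names tamoxifen, which activates a MerCreMer recombinase, at 75 mg/kg per day over 5 days from the age of 6 weeks. It also names ligation of the left coronary artery at 9 weeks, with a further tamoxifen course from 1 day before to 5 days after it. The promoter that drives the recombinase is not named there, beyond a fibroblast-specific line in the series' design and the Tcf21 reporter, and neither the number of animals behind a sample nor pooling is stated. Cells without TGFβ were not analysed here.

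Cells take up transferrin-bound iron through TFRC, and store what they do not use inside a ferritin shell built of heavy (FTH1) and light (FTL1) chains. FTH1 oxidises the iron, NCOA4 carries ferritin to the lysosome for release, and ferroportin (SLC40A1) is the only known cellular iron exporter of vertebrates. When iron is scarce, the iron regulatory proteins ACO1 (IRP1) and IREB2 (IRP2) bind hairpins called iron-responsive elements, which blocks translation from ferritin and ferroportin mRNA and stabilises Tfrc mRNA. Much of this control acts on translation and protein stability, which neither assay measured.

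Estimated counts summed to 11370115 and 10864365 in the KO libraries and to 8429166 and 9096811 in the WT libraries. Acta2 itself was at 256 and 266 CPM, the count scaled to the library total, in KO against 2186 and 2200 CPM in WT, a log2 fold change of -3.07, so the libraries follow their labels. Of 10 fibroblast markers all were detected, and their summed level was 3520 and 3530 CPM in KO libraries against 4960 and 4850 CPM in WT. In edgeR's quasi-likelihood test with Benjamini-Hochberg adjustment at 0.05, 9 of them were lower in KO and 1, Thy1, was higher. Of all 12192 genes tested, 35.7% were called, 18.3% higher in KO and 17.4% lower. Macrophage and leukocyte markers summed to 184 and 185 CPM in KO libraries against 106 and 101 CPM in WT, with 7 of 10 tested called higher and none lower. Among them, the macrophage marker Adgre1 had 66 and 80 counts in KO against 13 and 25 in WT, and Cd68 had 482 and 424 counts in KO against 210 and 220 in WT. Of the 15 listed, 5 were too low to test: Fcgr1 was at 0 in all 4 libraries, Cd163 at 0 except for 1 count in WT replicate 1, Mrc1 and Spic at 0 to 5 counts, and Ptprc at 11 and 9 counts in KO against 5 and 1 in WT. Endothelial markers summed to 147 and 159 CPM in KO libraries against 117 and 111 CPM in WT, with 7 of 10 higher and 1 lower. Erythroid transcripts were at 4.03 and 8.58 CPM in KO libraries against 32.4 and 2.34 CPM in WT, the high value being WT replicate 1. In bulk samples, fewer cells of a type and less RNA per cell cannot be told apart.

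Iron-responsive elements were read from GENCODE M21 transcripts and are shown because they mark which of the 10 genes hold a match to the hairpin pattern searched. The search was for a bulged C, 5 paired bases and the loop CAGTGN, with N as A, C or T and G-T pairs allowed. It found 1 match in the 5′ UTR of each of Fth1, Ftl1 and Slc40a1 and 4 in the 3′ UTR of Tfrc. All are written as DNA with the bulged C and the loop in capitals.
Fth1, 5′ UTR, chr19:9982732-9982760, + strand: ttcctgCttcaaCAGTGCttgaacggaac
Ftl1, 5′ UTR, chr7:45459779-45459807, - strand: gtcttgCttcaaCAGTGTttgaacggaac
Slc40a1, 5′ UTR, chr1:45925465-45925493, - strand: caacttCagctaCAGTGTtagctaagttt
Tfrc, 3′ UTR, chr16:32631219-32631247, + strand: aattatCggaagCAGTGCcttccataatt
Tfrc, 3′ UTR, chr16:32631598-32631626, + strand: cattatCgggagCAGTGTcttccataatg
Tfrc, 3′ UTR, chr16:32631663-32631691, + strand: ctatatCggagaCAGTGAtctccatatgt
Tfrc, 3′ UTR, chr16:32631710-32631738, + strand: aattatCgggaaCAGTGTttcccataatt

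The ferritin elements of Ftl1 and Fth1 are identical at 26 of 29 positions, although their host mRNAs stood at very different levels in these libraries. The same search matched the 5′ UTR of 23 of 20916 genes (0.11%) and the 3′ UTR of 99 of 21707 genes (0.456%). A match is a description of the letters and not a measured binding site, and no such match was found by this pattern in the transcripts of the other 6 genes. A hairpin of less regular shape would be missed, so the absence of a match does not show that a gene lacks one. Coordinates are in mm10 (GRCm38).

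Ferritin light chain was the most abundant transcript of every library. Ftl1 (chr7:45457944-45459884, - strand) had 183361 and 170333 estimated counts in KO libraries against 135744 and 145231 in WT libraries. It took 1.61% and 1.57% of all counts in KO libraries and 1.61% and 1.60% in WT libraries. The next gene by count was Actb with 0.784% and 0.769% in KO and Eno1 with 0.694% and 0.691% in WT, so Ftl1 led by count in all 4 libraries.

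Per kilobase of its principal transcript of 968 bases, Ftl1 reached 16599 and 16059 CPM in KO libraries and 16817 and 16594 CPM in WT, also the first rank in each library. The second rank per kilobase was Actb in KO, at 4070 and 3971 CPM, and Lgals1 in WT, at 4729 and 4500 CPM. Of the 100-base windows of Ftl1 transcripts, 44.7% occur in 6 other genes, most of them Ftl1 pseudogenes or overlapping rows. The authors' counting could therefore divide Ftl1 reads, but the processed copy Ftl1-ps1 was listed at only 82.8 and 81.0 CPM in KO libraries and 84.7 and 84.6 CPM in WT. Gm10252 lies on the opposite strand across the start of Ftl1, and the kit is not stated to keep strand, so reads from the overlap cannot be told apart.

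Between genotypes, Ftl1 was at 16068 and 15545 CPM in KO libraries against 16279 and 16063 CPM in WT. The groups overlapped, since KO replicate 1 lay just above WT replicate 2. The log2 fold change was -0.03 (SE 0.01), and edgeR's adjusted p was 0.0844, so the level did not pass the test. It passed as lower without KO replicate 1 (adjusted p 0.0100) and without WT replicate 2 (adjusted p 0.00489), so this call depends on single libraries.

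Fth1 (chr19:9980598-9985098, + strand), the heavy chain with the ferroxidase site, was the only one of the 10 genes called lower in KO. It was at 1814 and 1763 CPM in KO libraries and 1900 and 1880 CPM in WT. Both KO libraries lay below both WT libraries, but the gap was small. The log2 fold change was -0.08 (SE 0.02) with an edgeR adjusted p of 0.0111. The call ended without KO replicate 2 (adjusted p 0.178) and with edgeR's exact test (adjusted p 0.0962).

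The ratio of heavy to light chain transcripts within a library does not depend on library size. Fth1 amounted to 11.3% and 11.3% of the Ftl1 count in KO and 11.7% and 11.7% in WT, or 7.32% and 7.35% in KO and 7.56% and 7.58% in WT when both are taken per kilobase. The latter use principal transcripts of 1494 bases for Fth1 and 968 bases for Ftl1. All exons joined measure 3469 and 1340 bases, which would lower the per-kilobase percentages of every library alike. The log2 ratio of the counts averaged -3.14 (SD 0.00455, n = 2) in KO and -3.10 (SD 0.00292, n = 2) in WT, a difference of -0.05. Both KO ratios were below both WT ratios, and with 2 libraries against 2 an exact two-sided permutation test cannot give a p below 0.333.

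The nearest patterns over the 4 libraries were sought among the 4982 genes whose mean log2 CPM was 5 or more, by Euclidean distance of log2 CPM centred on each gene's mean. Ftl1 was closest to Rps9 (distance 0.00606), Nubp1 (0.00625) and Maea (0.00877). For Fth1 the closest were Mrpl21 (0.0038), Glrx3 (0.00692) and Iscu (0.00812). With 4 libraries such a distance mainly ranks genes by small differences of the same size, and no test goes with it.

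**Figure D1:**
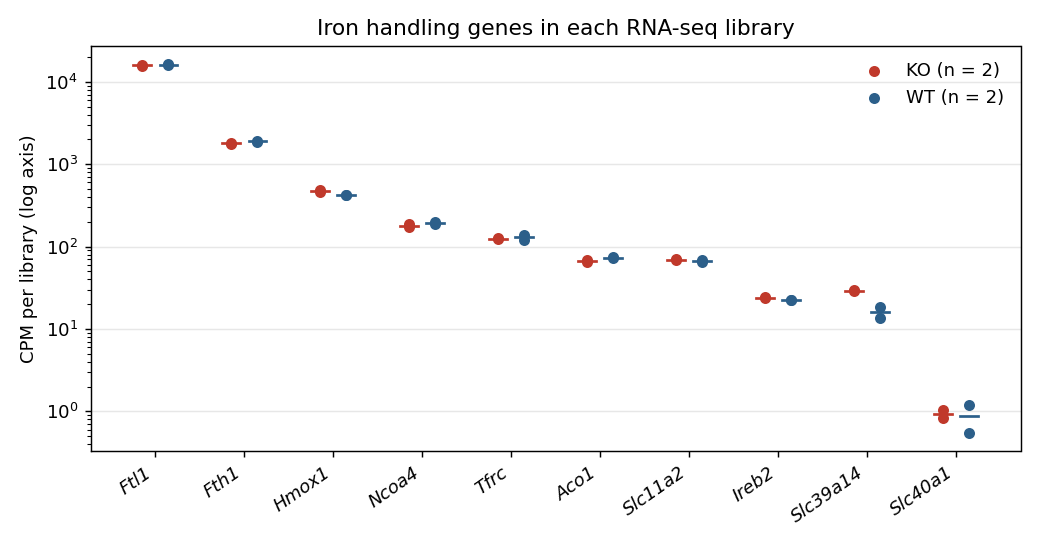
Level of each of the 10 genes in every RNA-seq library, in CPM on a log axis; points are libraries (2 KO, 2 WT) and short lines the mean of each genotype. The levels run over 4 orders of magnitude, with Ftl1 at a mean of 15806 CPM in KO libraries and 16171 CPM in WT and Slc40a1 at 0.936 CPM in KO libraries and 0.876 CPM in WT, and a visible gap between genotypes is seen for Slc39a14.

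Among the importers of the 10 genes, Slc39a14 differed most between genotypes. Slc39a14 (chr14:70303469-70351425, - strand) encodes ZIP14, a membrane importer of iron not bound to transferrin, and also of zinc and manganese. It had 327 and 326 counts in KO and 154 and 122 counts in WT, equal to 28.7 and 29.8 CPM in KO libraries and 18.5 and 13.5 CPM in WT. Both KO libraries were above both WT libraries, and the WT libraries were spread wider than the KO libraries. The level was 1.84-fold higher in KO, a log2 fold change of 0.88 (SE 0.13) with an edgeR adjusted p of 3.09e-06. The log2 fold change was 0.66 without WT replicate 2 and 1.11 without WT replicate 1, and stayed past the threshold in each. At an assumed biological coefficient of variation (BCV, the relative spread between replicates beyond counting noise) of 0.2, in place of the fitted 0.0311, the adjusted p was 0.103.

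Tfrc (chr16:32608920-32632794, + strand), which brings in transferrin-bound iron, had 122 and 128 CPM in KO libraries and 122 and 140 CPM in WT. The groups overlapped and the log2 fold change was -0.07 (SE 0.06, edgeR adjusted p 0.401). WT replicate 2 set the sign: the value was 0.04 without it and -0.16, past the threshold at an adjusted p of 0.0442, without WT replicate 1.

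Slc11a2 (chr15:100387898-100425072, - strand) encodes DMT1, which moves ferrous iron out of the endosome. Its level was 69.8 and 69.0 CPM in KO libraries and 65.5 and 67.9 CPM in WT. The groups did not overlap, but the difference was close to the spread within WT, with a log2 fold change of 0.06 (SE 0.06, edgeR adjusted p 0.527).

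The exporter Slc40a1 (chr1:45908068-45926523, - strand) had few counts, with 12 and 9 in KO and 10 and 5 counts in WT. The groups overlapped. Its log2 fold change was 0.12 (SE 0.54, edgeR adjusted p 0.894), and the sign turned to -0.08 without KO replicate 1 and to -0.35 without WT replicate 2. No change in ferroportin mRNA was detected, and with so few counts the value is imprecise.

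Neither iron sensor passed the test. Aco1 (chr4:40143081-40198338, + strand), which is a cytosolic aconitase when it holds an iron-sulphur cluster and an RNA-binding protein when it does not, was at 65.3 and 68.7 CPM in KO libraries and 72.1 and 73.9 CPM in WT. Ireb2 (chr9:54863789-54912530, + strand), whose protein is degraded in iron-replete cells, was at 24.2 and 23.5 CPM in KO libraries and 22.4 and 22.6 CPM in WT. Neither gene overlapped between groups, Aco1 being lower and Ireb2 higher in both KO libraries, with gaps close to the spread within a genotype. The log2 fold changes were -0.12 (SE 0.06, adjusted p 0.137) for Aco1 and 0.09 (SE 0.11, adjusted p 0.583) for Ireb2.

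The other gene called higher in KO was Hmox1. It (chr8:75093621-75100589, + strand), the inducible haem oxygenase that frees iron from haem and is a target of NRF2 and BACH1, had 482 and 461 CPM in KO libraries and 417 and 424 CPM in WT. Both KO libraries exceeded both WT libraries. The level was 1.12-fold higher in KO, a log2 fold change of 0.17 (SE 0.04) with an edgeR adjusted p of 0.000709. At an assumed BCV of 0.1 the adjusted p was 0.519. Macrophages are known to be rich in this enzyme. The macrophage and leukocyte markers summed to 184 and 185 CPM in KO libraries against 106 and 101 CPM in WT, and their part in the Hmox1 and Slc39a14 values was not tested.

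Ncoa4 (chr14:32159865-32179855, + strand), the receptor that delivers ferritin to lysosomes, was at 174 and 186.1 CPM in KO libraries and 201 and 186.2 CPM in WT. KO replicate 2 and WT replicate 2 lay almost level, and KO replicate 1 was lower and WT replicate 1 higher. The log2 fold change was -0.11 (SE 0.05, edgeR adjusted p 0.0987). It passed as lower without KO replicate 2 (adjusted p 0.0380) and without WT replicate 2 (adjusted p 0.0309). Of its windows of 100 bases, 16.0% occur also in the gene Gm6768, and how far this affects its count was not measured.

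**Figure D2:**
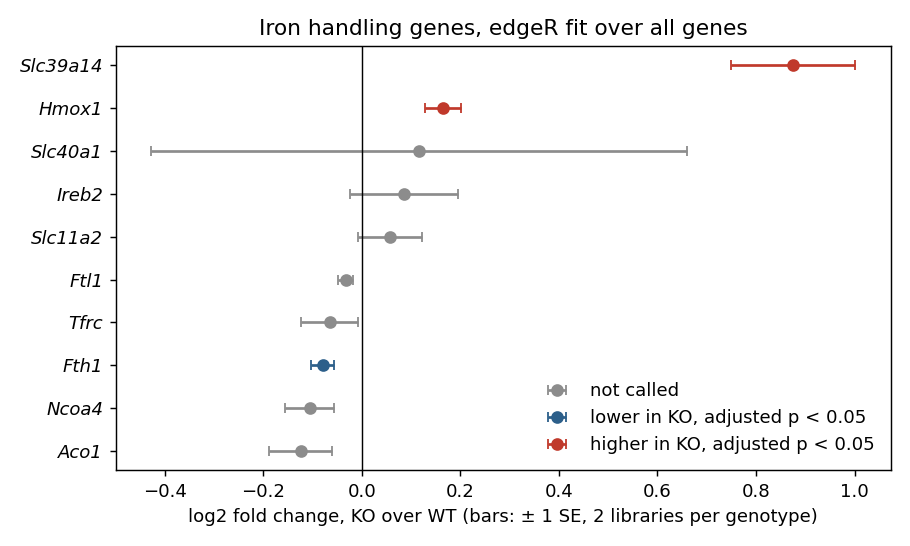
Log2 fold change, KO over WT, of each of the 10 genes from the edgeR fit over 12192 genes, with bars of 1 SE to each side. Slc39a14 (0.88) and Hmox1 (0.17) were called higher, Fth1 (-0.08) lower, and the bar of Slc40a1 is the widest, with an SE of 0.54.

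Counted together, all 10 genes passed the low-count filter, 2 were called higher, 1 lower and 7 were not called. The called share, 30.0%, was near the 35.7% of all genes tested. For 7 of the 10 genes the KO and WT libraries did not overlap, against 67.1% of all genes tested. The median log2 fold change was 0.012 over the 10 genes and 0.0014 over all genes. At an unadjusted p under 0.05, 5 of the 10 passed. The share of all genes at that threshold was not counted, and it cannot be below the 35.7% that passed after adjustment.

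Levels between genes were compared per kilobase of principal transcript. Ftl1 led with a mean of 16329 CPM per kilobase in KO and 16706 in WT. Fth1 followed at 1197 in KO and 1265 in WT, then Hmox1 at 300.5 in KO and 268 in WT. Storage transcripts and the haem enzyme were thus far above the rest. Ncoa4 stood at 44.3 CPM per kilobase in KO and 47.7 in WT, Tfrc at 25.6 in KO and 26.7 in WT, Slc11a2 at 22.9 in KO and 22.05 in WT, and Aco1 at 17.5 in KO and 19.0 in WT. At the low end were Slc39a14 at 5.93 in KO and 3.24 in WT, Ireb2 at 4.14 in KO and 3.90 in WT, and Slc40a1 at 0.278 in KO and 0.260 in WT. Slc39a14 was thus above Ireb2 in KO and below it in WT. In WT the gap between these 2 genes was smaller than the distance between the WT libraries of Slc39a14. Neighbours in this order, these 2 genes included, did not overlap within either genotype at these lengths. The order depends on the length chosen. Per kilobase of all exons joined, Aco1 ranked above Slc11a2 in every library, and Tfrc ranked above Ncoa4 in all libraries except WT replicate 1.

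The wider iron pathway was read from lists of 129 genes in 7 groups, of which 118 were tested. Of these, 26 were higher, 16 lower and 76 not called, which in both directions together is close to the 35.7% of all genes tested. Counts of the single lists stand against 18.3% of all genes called higher and 17.4% called lower, and no difference between a list and other genes was tested. The median of the 118 log2 fold change was 0.0205. The lists below give the called members with the largest changes where the mean log2 CPM was 2 or more, and all p-values are edgeR's adjusted over 12192 genes.

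Of 12 uptake genes tested, 6 were higher, 1 lower and 5 not called, with a median of 0.21. Slc46a1, a transporter of haem and folate, was at 28.8 ± 0.26 CPM in KO libraries and 16.2 ± 2.31 CPM in WT libraries (mean and SD over 2 libraries, as for the values below). Its log2 fold change was 0.83. Trf, which encodes transferrin, was at 41.8 ± 1.90 CPM in KO libraries and 26.7 ± 0.995 CPM in WT, a log2 fold change of 0.64, but 53.2% of its windows of 100 bases are shared with the row Gm20425. Lrp2, the endocytic receptor megalin, was at 8.15 and 7.85 CPM in KO libraries and 3.84 and 5.09 CPM in WT, and its call ended with DESeq2's Wald test (adjusted p 0.138). The only lower gene was Steap4, a ferrireductase of the plasma membrane and endosomes, at 10.2 ± 1.62 CPM in KO libraries and 22.5 ± 3.27 CPM in WT, a log2 fold change of -1.15 (adjusted p 5.42e-07).

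Of 10 genes of export and systemic control tested, 1 was higher, 4 were lower and 5 were not called, with a median of -0.10. Cp, the multicopper ferroxidase ceruloplasmin that loads exported iron onto transferrin, was at 20.3 and 26.5 CPM in KO libraries and 58.8 and 56.3 CPM in WT. Both KO libraries lay well below both WT libraries, and the log2 fold change was -1.30 (SE 0.10, adjusted p 1.97e-11). Bmp6, the BMP ligand that induces hepcidin in liver, and Bmpr2, a BMP receptor, had log2 fold changes of -0.58 and -0.53. The Bmp6 call ended with DESeq2's Wald test (adjusted p 0.224), without KO replicate 2 (edgeR adjusted p 0.105) and without WT replicate 1 (0.0508). The fourth lower gene, Hephl1, a ferroxidase related to ceruloplasmin, had 3 and 2 counts in KO and 15 and 27 counts in WT, and is named after its values were seen. Neo1, a hepcidin pathway co-receptor that binds hemojuvelin, was called higher at 0.27 (adjusted p 0.0460) although its libraries overlapped. Without WT replicate 1 its value was 0.09 and without KO replicate 2 it was 0.16, neither past the threshold.

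Of 9 storage, chaperone and sensing genes tested, none was called higher, 6 were lower and 3 not called, against 18.3% higher and 17.4% lower over all genes, with a median of -0.22. Epas1, which encodes HIF-2α and is itself an iron-responsive element mRNA, was at 24.8 ± 2.01 CPM in KO libraries and 37.1 ± 4.07 CPM in WT, a log2 fold change of -0.58. Herc2, a ubiquitin ligase of the NCOA4 pathway, had -0.42, and Fbxl5, the iron-sensing adaptor that marks IREB2 for degradation, had -0.26. Atg7, needed for autophagosome formation, had -0.22. Herc2, Fbxl5 and Atg7 did not pass DESeq2's Wald test (adjusted p 0.334, 0.181 and 0.275), and the edgeR call of each ended without WT replicate 2.

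Of 31 iron-sulphur cluster genes tested, 4 were higher, none lower and 27 not called, with a median of -0.02. Among the higher ones were Isca2 (0.27), Ciao2a (0.20) and Cisd2 (0.16). None of these 3 passed DESeq2's Wald test, where Cisd2 had an adjusted p of 0.295, and the edgeR call of each ended without WT replicate 2.

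Of 17 haem synthesis and breakdown genes tested, 4 were higher, 2 lower and 11 not called, with a median of 0.02. Alas1, the enzyme of the first and rate-limiting step of haem synthesis outside erythroid cells, was at 335 and 329 CPM in KO libraries and 219 and 215 CPM in WT. Both KO libraries were far above both WT libraries, and the log2 fold change was 0.61 (SE 0.04, adjusted p 2.06e-12). Cpox and Alad, 2 further enzymes of the pathway, had 0.49 and 0.30, while Urod, which acts between them, had -0.35. The Alad call ended with DESeq2's Wald test (adjusted p 0.124), and those of Alad and Urod at an assumed BCV of 0.1. The remaining calls were Pgrmc1, higher in KO at 643 ± 11.8 CPM against 527 ± 2.60 CPM in WT, and Por, lower at 104 ± 5.67 CPM in KO libraries against 121 ± 3.88 CPM in WT, both named after their values were seen.

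Of 25 genes of the NRF2 and BACH1 axis, which also includes Hmox1 among its known targets, 6 were higher, 2 lower and 17 not called, with a median of 0.08. Nqo1, a quinone reductase, was at 15.5 ± 1.26 CPM in KO libraries and 7.99 ± 0.276 CPM in WT, a log2 fold change of 0.95. Srxn1, which repairs oxidised peroxiredoxins, was at 110 ± 2.20 CPM in KO libraries and 68.1 ± 1.21 CPM in WT, a log2 fold change of 0.70, and the small MAF factor Maff had 0.42, a call that ended at an assumed BCV of 0.1. Mgst1, a microsomal glutathione transferase, was lower at -0.54. Ephx1, the other lower gene, was at 532 ± 8.36 CPM in KO libraries and 710 ± 15.6 CPM in WT and is named after its values were seen.

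Of 15 genes of lipid peroxidation and ferroptosis, an iron-dependent form of cell death, 5 were higher, 1 lower and 9 not called, with a median of 0.13. Ptgs2, the inducible cyclooxygenase, was at 779 and 851 CPM in KO libraries and 349 and 390 CPM in WT. Both KO libraries were above both WT libraries, and the log2 fold change was 1.14 (SE 0.04, adjusted p 4.29e-18). Alox5, a lipoxygenase typical of leukocytes, had a log2 fold change of 1.51 from 87 and 96 counts in KO against 20 and 30 counts in WT. Acsl4, which loads polyunsaturated fatty acids into membranes, was at 85.1 ± 4.34 CPM in KO libraries and 147 ± 2.66 CPM in WT, a log2 fold change of -0.79, and Chac1, a glutathione-degrading enzyme, had 0.41. The Chac1 call ended with DESeq2's Wald test (adjusted p 0.183), at an assumed BCV of 0.1 and without WT replicate 1 (edgeR adjusted p 0.0646). The other higher genes, Sat1 and Alox12, are named after their values were seen. The macrophage and endothelial marker sums given above were also higher in KO, and their part in these values was not tested.

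**Figure D3:**
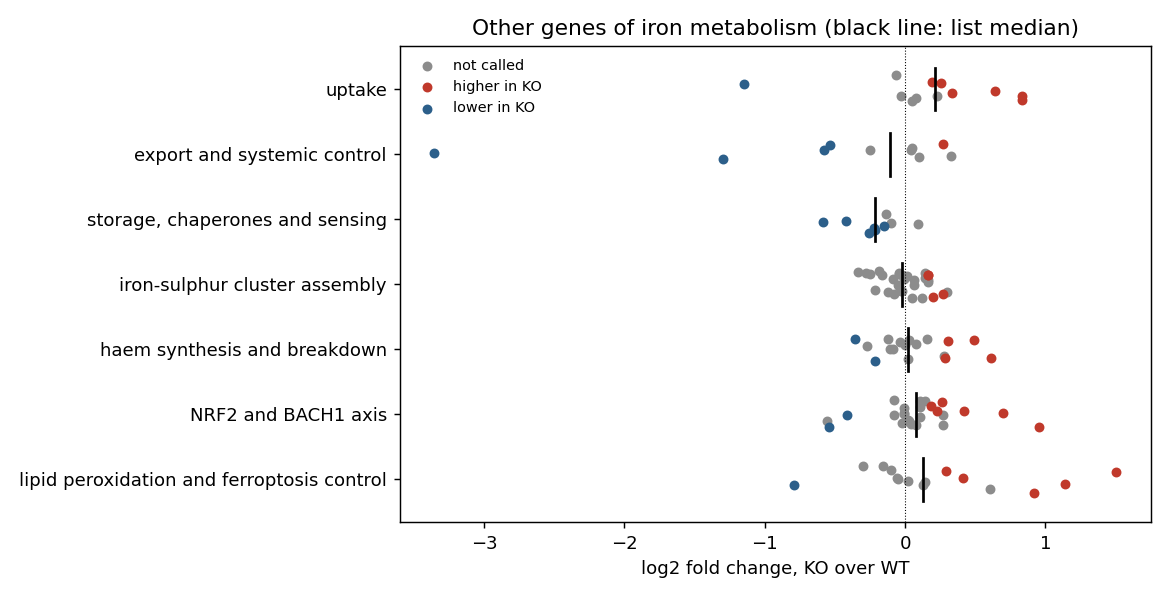
Log2 fold change, KO over WT, of the 118 tested genes of 7 iron-related lists, each point a gene and each black line the list's median. Of the uptake genes 6 of 12 were called higher and of storage, chaperones and sensing 0 of 9, beside 18.3% of all genes tested, and the point at the far left is Hephl1, which rests on 3 and 2 counts in KO.

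With assumed BCVs in place of the fitted one, fewer of the 28 genes that the naming rule took from these lists kept their call: 16 at 0.1, and at 0.2 the 4 genes Cp, Alox5, Ptgs2 and Steap4. DESeq2's Wald test kept 16.

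Open chromatin at the same genes was read from MACS2 peaks, 121748 in KO and 123935 in WT, called in each library separately. With 1 library per genotype there is no replicate check, and no test is given. The fold enrichment at a peak's summit is the authors' value and is relative to the library's own genome-wide background. A peak overlapped the window of 1 kb to each side of the annotated 5′ end in 9 of the 10 genes in KO and in all 10 in WT, against 93.6% of the tested genes in each library.

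Where both libraries had such a peak, the KO fold over the WT fold lay between 0.909 and 1.304, above 1 for 6 genes and below 1 for 3. None of the 9 was past 1.5-fold in either direction, against 7.11% of 11316 genes (6.46% higher in KO and 0.654% lower). The median log2 ratio was 0.09 over the 9 genes and 0.17 over all genes with a peak in both. The median promoter fold over all genes was 21.2 in KO and 18.9 in WT, so ratios slightly above 1 were usual.

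The strongest promoter peak was at Aco1, at 46.8-fold in KO and 37.0-fold in WT, above 99.93% of the KO and 99.68% of the WT peaks. Hmox1 had the highest ratio, with 26.8-fold in KO and 20.5-fold in WT. Ncoa4 had the lowest, with 24.7-fold in KO and 27.1-fold in WT. Slc39a14, whose transcript was 1.84-fold higher in KO, had 17.0-fold in KO and 18.5-fold in WT. Tfrc was at 17.9-fold in KO and 17.7-fold in WT, and Ireb2 at 15.3-fold in KO and 13.6-fold in WT. Slc40a1 was at 17.4-fold in KO and 16.4-fold in WT in spite of its few RNA counts. Slc11a2 was at 22.5-fold in KO and 24.2-fold in WT. Its summit lay outside the window, 2320 bases past the 5′ end in KO and 2169 bases past it in WT. By sign alone, promoter folds and transcript changes pointed the same way for Hmox1, Slc40a1, Ireb2 and Ncoa4. They pointed opposite ways for Slc39a14, Aco1, Ftl1, Tfrc and Slc11a2, with no test of any pairing. Of these genes only Hmox1 and Slc39a14 had a called transcript change. The sign was taken about a ratio of 1, while the median log2 ratio over all genes was 0.17. Taken about that median, Slc40a1 (log2 ratio 0.085) would point opposite ways and Tfrc (0.015) the same way. Ireb2 (0.175) would have no clear direction. Aco1 and Ftl1 had promoter ratios of 1.265 and 1.225, beside 1.304 for Hmox1, and transcript log2 fold changes of -0.12 and -0.03.

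**Figure D4:**
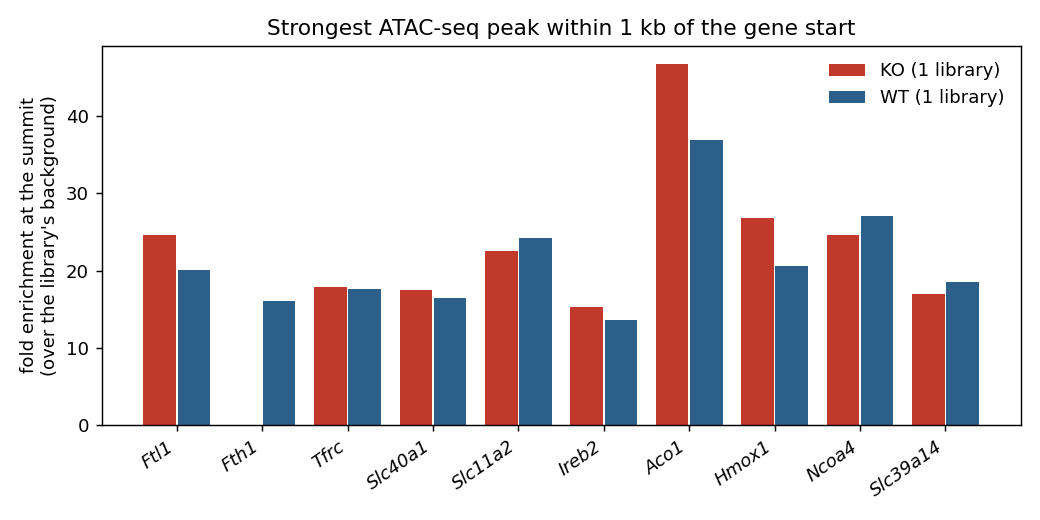
Fold enrichment at the summit of the strongest ATAC-seq peak overlapping the window of 1 kb to each side of each gene's annotated 5′ end. Values are for the KO library (left bar) and the WT library (right bar), from 1 library each. For Ftl1, Fth1 and Slc11a2 the summit itself lay outside that window. Aco1 is highest in both, at 46.8-fold in KO and 37.0-fold in WT, and the empty place in KO is Fth1, where no peak reached that window. The WT bar of Fth1, at 16.0-fold, is an upstream peak whose edge reached the window. KO had the same peak at 14.0-fold, but it ended short of the window.

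Ftl1 lay in a single broad peak of 9195 bases in KO and 8868 bases in WT, which covered the whole gene and reached into its neighbour Bax. Its summit was at -1230 bases from the 5′ end in KO, at 24.7-fold, and at -1099 bases in WT, at 20.1-fold. The annotated 5′ end of Fth1, where KO had no peak, is that of a transcript that starts well upstream of the others. At the downstream start (position 9982646), which lies 86 bases before the iron-responsive element, a peak was at 30.6-fold in KO and 31.2-fold in WT. A further peak, at 14.0-fold in KO and 16.0-fold in WT, had its summit at -3915 bases from that start in KO and -4013 bases in WT. The edge of this further peak is what reached the window of the annotated 5′ end in WT, while in KO the peak ended short of it.

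Peaks within 20 kb of the 10 starts were searched on both strands for TGACTCAGC, a form of the antioxidant response element that NRF2 and BACH1 recognise. Elements of this kind have been described upstream of Hmox1 and of both ferritin genes in the mouse. The motif was added to the search after the data were seen, and its letters alone do not show which factor binds. It occurred in 4 of 56 KO peaks and 4 of 55 WT peaks: the broad Ftl1 peak, the upstream Fth1 peak and 2 upstream Hmox1 peaks. Of all peaks, 3.88% in KO and 3.58% in WT held it somewhere along their length. The sequences that hold it at the ferritin genes (300 bases around the KO summit) and in the farther Hmox1 peak are shown because they hold both ferritin matches and 3 of the 4 Hmox1 matches in peaks of both libraries, and all lie outside annotated genes. The nearer Hmox1 peak, with 1 match, is not printed. Capitals mark its matches, GCTGAGTCA being the reverse complement, and the first capitals of the Fth1 window are a match to the looser TGACNNNGC only.
Ftl1, chr7:45460964-45461263, - strand: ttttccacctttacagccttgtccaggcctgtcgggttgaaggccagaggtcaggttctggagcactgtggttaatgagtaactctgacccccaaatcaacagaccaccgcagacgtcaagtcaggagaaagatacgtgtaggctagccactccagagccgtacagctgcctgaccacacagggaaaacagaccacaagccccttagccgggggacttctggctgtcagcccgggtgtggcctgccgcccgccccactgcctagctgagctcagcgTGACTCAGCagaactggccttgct
Fth1, chr19:9978581-9978880, + strand: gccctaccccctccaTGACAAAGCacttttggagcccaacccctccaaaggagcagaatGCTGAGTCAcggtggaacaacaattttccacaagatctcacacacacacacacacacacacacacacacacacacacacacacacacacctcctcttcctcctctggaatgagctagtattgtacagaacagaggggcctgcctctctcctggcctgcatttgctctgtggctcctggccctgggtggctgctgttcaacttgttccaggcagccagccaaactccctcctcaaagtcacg
Hmox1, chr8:75083939-75084024, + strand: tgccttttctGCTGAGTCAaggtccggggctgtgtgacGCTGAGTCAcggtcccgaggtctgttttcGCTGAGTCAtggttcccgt

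The Ftl1 match (chr7:45460979-45460987) lies at -1103 bases from the 5′ end. The Fth1 match (chr19:9978640-9978648) lies at -1958 bases from the annotated 5′ end. Hmox1 had 3 matches in the farther peak, at -9672, -9644 and -9615 bases, and 1 in the nearer peak, at -3871 bases. In windows of 300 bases around the summits the motif was in 1.76% of KO and 1.59% of WT peaks, and in 0.454% of 32851 RefSeq promoters.

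The looser TGACNNNGC, which includes every TGACTCAGC match, was in 14.5% of KO and 14.1% of WT summit windows and in 12.4% of RefSeq promoters. In the 10 RefSeq promoter windows available for 6 of the genes (Ftl1, Fth1, Tfrc, Ireb2, Aco1 and Ncoa4, build GRCm38.p6), it occurred once, in the third window of Ncoa4 (chr14:32165539-32165838), and TGACTCAGC in none. These letters are not in those windows, and nothing follows from that about a factor.

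At Hmox1, the peaks with the motif had their summits at -9822 bases from the 5′ end in KO and -9828 bases in WT, and at -4204 bases in KO and -4116 bases in WT. The farther peak was at 17.4-fold in KO and 11.1-fold in WT. The nearer one was level, at 20.4-fold in KO and 20.5-fold in WT. Gaps like that of the farther peak also occurred at peaks without the motif. A Slc39a14 peak with its KO summit at -19545 bases was at 9.35-fold in KO and 5.75-fold in WT. Another, at 14799 bases, went the other way, at 11.1-fold in KO and 16.0-fold in WT. The share of all distal peaks that differ as much was not counted. Within 20 kb of its start Hmox1 had 11 peaks in KO, of which 8 overlapped a WT peak, and 9 peaks in WT, all overlapping a KO peak. The 3 peaks without a WT counterpart were weak, between 3.40-fold and 4.25-fold.

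**Figure D5:**
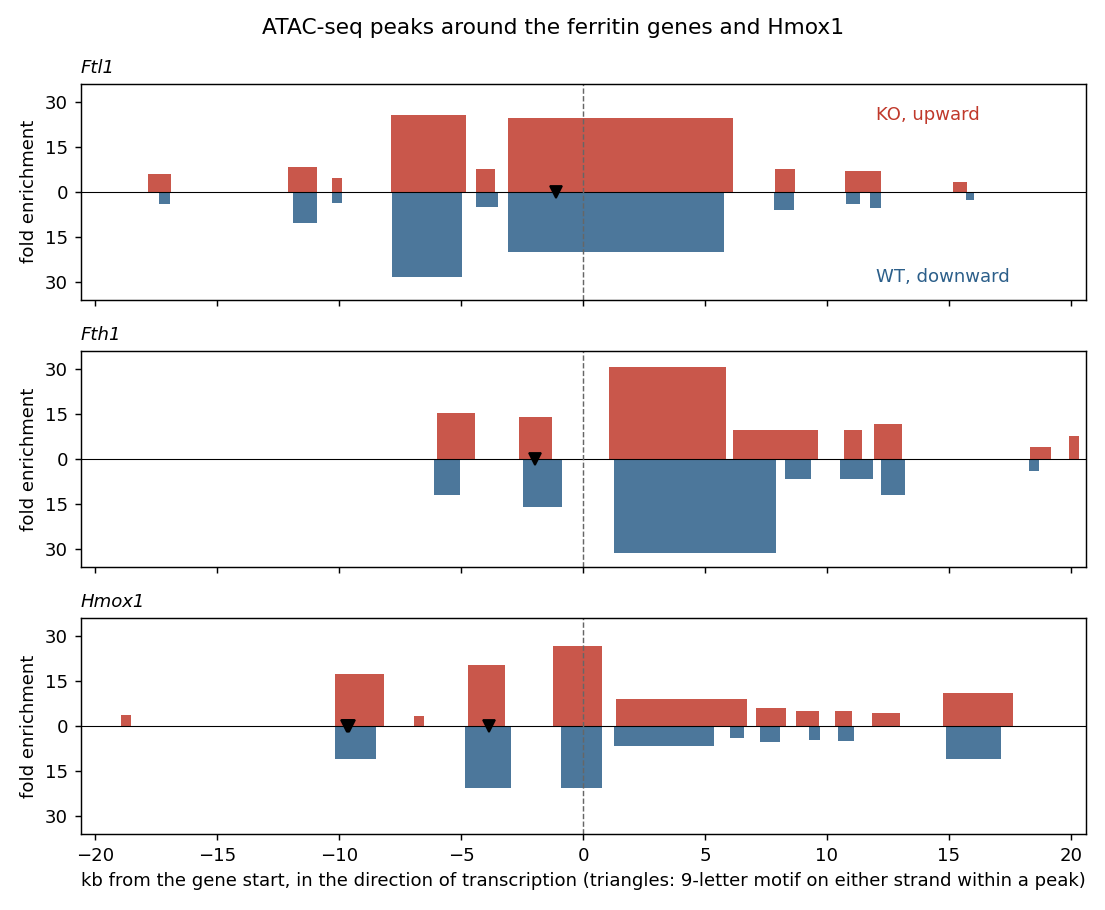
ATAC-seq peaks within 20 kb of the annotated 5′ ends of Ftl1, Fth1 and Hmox1, in kb in the direction of transcription; bar height is the fold enrichment at the summit, with KO drawn upward and WT downward, and triangles mark the motif TGACTCAGC inside a peak. The main peaks recur in both libraries, and the most distal marked Hmox1 peak is at 17.4-fold in KO and 11.1-fold in WT. Gaps of similar size also occurred at peaks without the motif.

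Over all 10 genes, 46 of 56 KO peaks (82.1%) within 20 kb overlapped a WT peak by at least 1 base, and 47 of 55 WT peaks (85.5%) overlapped a KO peak. Of all peaks, 76.3% in KO and 75.6% in WT did so. Slc39a14 had 4 peaks in KO, all shared, and 8 in WT, of which 5 were shared. Ncoa4 had 5 in KO and 3 in WT, with 2 shared in each. The unshared peaks of Slc39a14 in WT were at 4.11-fold, 4.11-fold and 5.75-fold.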

How the data were processed

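The samples were grouped by the genotype label: for RNA-seq 2 KO and 2 WT, for ATAC-seq 1 of each. The 10 genes and all gene lists were chosen with earlier results of these data known.

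The authors deposited estimated counts per gene, of which 10.8 to 12.2% per library are not whole. Per the labels' protocols, pairs of 150 bp reads passed Trim Galore 0.6, and STAR 2.5.3a placed them on mm10. Which program and annotation produced the counts is not given in the sources used here. Whole counts had been assumed in planning, so the estimates were rounded and the planned test kept. The deposited peak lists, called per sample with MACS2 after Bowtie2 2.3 alignment, removal of duplicates and unique mapping per the labels' protocols, hold an integer score, the fold enrichment as a ratio over background, a −log10 p-value and a −log10 q-value per peak. The depth of the ATAC-seq libraries is unknown. A shift of cut sites is not stated.

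Genes were tested with a quasi-likelihood fit of genotype in edgeR 4.0.16 (R 4.3.3), after filterByExpr with a minimum count of 10 and TMM scaling, and p was adjusted by Benjamini-Hochberg over all 12192 genes kept, with 0.05 as the threshold. The SE was taken from the log2 fold change and its F statistic, and CPM uses TMM-scaled totals. Nothing says that replicates came from separate animals or cultures, so p-values reflect no more than how far these samples spread, which may be technical. Counts of replicates differed beyond sampling noise, with a chi-square per degree of freedom of 1.99 in KO and 1.77 in WT, so all 4 libraries were kept. In simulated counts at the fitted BCV of 0.0311, only 50 genes were changed at each fold. The test of KO against WT found 26% of the 1.2-fold changes and 68% of the 1.5-fold changes. It found 90% of the 2-fold and 100% of the 4-fold changes, and made 6 false calls among 12010 genes. In the data 35.7% of the genes were called, so the adjustment was stricter in the simulation. These shares therefore do not measure the power of the comparison itself.

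Of 25746 genes, 25712 were found in GENCODE M21 (GRCm38, the same assembly as mm10) by identifier and 25535 had identical coordinates. Start sites are 5′ ends of GENCODE genes, coordinates are 1-based, and promoter sequences are from RefSeq. Named by rule were the 10 genes, Acta2, the nearest patterns to Ftl1 and Fth1, the top genes by count, and up to 4 called genes per list with the largest change and a mean log2 CPM of 2 or more. One gene that this rule takes is not reported here. Promoter peaks overlapped a window of 1000 bases to each side of the start by at least 1 base. Alternatives covered scaling, filters, DESeq2 1.42.0, edgeR's exact test, assumed BCVs, added copies, a replicate block, left-out libraries, promoter windows, stricter peaks and overlap. Python 3.11.15, pandas 2.3.3, pysam 0.24.0 and matplotlib 3.10.9 were used.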

Additional observations from a re-analysis of the deposited data

How the results depend on the processing

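The main limits are 2 libraries per genotype for RNA-seq, 1 for ATAC-seq, and a fitted BCV of 0.0311. Of the values for the 10 genes under the alternatives, 152 kept their direction and side of the threshold, 7 dropped below it, 6 passed it and 3 reversed. The 2 genes called higher and 1 called lower became 1 and 0 at an assumed BCV of 0.1 and 0 and 0 at 0.2, and edgeR's exact test called 0 lower. Leaving out 1 library at a time gave 1 to 3 called lower, and the cause was not tested. Slc40a1 reversed to -0.080 without KO replicate 1 and to -0.35 without WT replicate 2, its range over left-out libraries running to 0.75. Tfrc reversed to 0.039 without WT replicate 2, its range starting at -0.16. Over the wider lists, 26 higher and 16 lower calls became 11 and 10 with DESeq2, 10 and 9 at a BCV of 0.1, and 2 and 3 at 0.2. Over all genes, 2231 higher and 2121 lower became 773 and 920 with DESeq2, 1027 and 753 at 0.1, and 223 and 175 at 0.2. Same-numbered replicates deviated from their group means with a correlation of 0.00557 over the tested genes. With 2 libraries per group this value cannot show whether some genes were paired by replicate, and the labels state no pairing. With a replicate block 2 of the 10 genes were called lower, Ftl1 being added at an adjusted p of 0.00146. Adding rows that share 100-base windows with these genes, chosen after seeing the data, kept all 3 calls. At a BCV of 0.2, simulated 1.5-fold changes were recovered in 0% and 4-fold changes in 92%. Here too only 50 genes were changed at each fold, so these shares do not measure the power of the comparison itself. The promoter and shared peak counts stayed within 1.5 times of those given under the other windows, starts, peak threshold and overlap that were tried.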
